A study of Mus musculus with 2 samples.

Results

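The genes described here are those of the proteasome in mouse testis, taken as the 50 symbols of the deposited gene list whose names run from Psma to Psmg followed by a number. Of these, 32 could be tied to a single row of the count matrix, out of 5476 such symbols among 25065 in all, and only these have values. Among the 32, 31 encode parts, regulators or assembly factors of the proteasome, and Psmc3ip shares the name only, since its product acts in meiotic recombination. The 31 genes cover 6 of 7 alpha subunits and 6 of 7 beta subunits of the core, the testis alpha subunit Psma8, 4 of 6 ATPases and 9 of 11 other subunits of the cap, 3 of 6 activators and inhibitors, and 2 of 7 assembly factors. The symbols Psma1, Psmb4, Psmb8, Psmb9, Psmb10, Psmc1, Psmc4, Psmd1, Psmd5, Psmd10, Psmd14, Psme1, Psme2, Psme2b, Psmg1, Psmg2, Psmg3 and the pseudogene Psmb6-ps2 had several possible rows and were not analysed here, so nothing is said of the subunits of the immunoproteasome.

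Single testis cells were sequenced as 1 wild-type (WT) and 1 Tex13a knocked-out (KO) library, each made from 3 testes of 3 male C57BL/6 (C57BL/6N in the study's methods) mice aged 10 to 12 weeks, pooled after collagenase I digestion of whole testes. In the KO mice, all reading frames of Tex13a, an X-linked gene of spermatids, had been deleted with CRISPR/Cas9 in every cell of the animal, and the WT mice carried no deletion. The study asked what the loss of Tex13a does to the mRNAs of late spermatids. With 1 library per genotype the mice cannot be separated and no test between genotypes was possible, so that genotype and library cannot be told apart in any comparison given here.

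UMIs (unique molecular identifiers) count captured mRNA molecules, and 45568532 of them came from 5170 WT cells and 67734689 from 7238 KO cells. No cell barcode was shared between the libraries. The authors' clusters were used, which are 1 of spermatogonia (Sg), 2 of spermatocytes (Sc1 and Sc2), 1 of spermatocytes mixed with early spermatids (Sd1), and Sd2 to Sd10 of haploid spermatids. Cells per cluster ranged from 130 to 700 in WT and from 99 to 1057 in KO, with 184 and 278 cells in Sd10. Summed markers of spermatocytes were highest in Sc1, those of round spermatids in Sd4 and those of elongating spermatids in Sd8, in both libraries. The 4 usable spermatogonial markers (Kit, Uchl1, Stra8 and Dazl) were higher in Sc1, at 6974 CPM (UMIs scaled to a common cluster total) in WT and 7004 CPM in KO, than in Sg, at 3130 and 2959 CPM, so that they did not set Sg apart from Sc1. None of the listed Sertoli cell markers had a single possible row, which leaves these cells unchecked. The symbol Tex13a also had several possible rows, so the deletion was not checked here.

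The proteasome is the barrel-shaped protease that degrades ubiquitin-tagged proteins. Its core is a stack of rings of alpha subunits, which gate the entry, and beta subunits, of which Psmb5, Psmb6 and Psmb7 carry the cutting sites. A cap of ATPases, which unfold substrates, and of other subunits, which bind and remove ubiquitin, sits on the end of the core, and activators such as Psme3 and Psme4 can take its place. Male germ cells are known for a variant in which Psma8 replaces Psma7, and Psme4 is known for the removal of acetylated histones while sperm chromatin is repacked.

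Most proteasome genes were highest at the start of spermatogenesis and close to absent at its end. Levels are the UMIs of a gene summed over the cells of a cluster and scaled to CPM, with exact Poisson 95% intervals that cover counting error only. The summed level of all 31 genes was 9867 CPM in Sg, 7152 in Sc2, 4760 in Sd4 and 2838 in Sd10 in the WT library. In the KO library it was 9835 CPM in Sg, 6905 in Sc2, 4848 in Sd4 and 2954 in Sd10. Of the 31 genes, 19 were highest in Sg or Sc1 in WT and 20 in KO, 9 and 8 were highest between Sc2 and Sd4, and 3 in each library were highest between Sd5 and Sd10. The cluster with the highest level was the same in both libraries for 27 of 31 genes. In Sd10, 23 of 31 genes were under 20 CPM and 5 were at 50 CPM or more, in WT as in KO. The same counts were not made over all genes, so this course is not shown to be particular to the proteasome. The median number of genes found per cell also went down, from 2654 in Sg to 1077.5 in Sd10 in WT and from 2580 to 1127.5 in KO. Since the clusters were made from these same cells and genes, the courses are a description, and since CPM are shares of the RNA in a cluster, a gene can be lower because other mRNAs take more of the total.

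**Figure D1:**
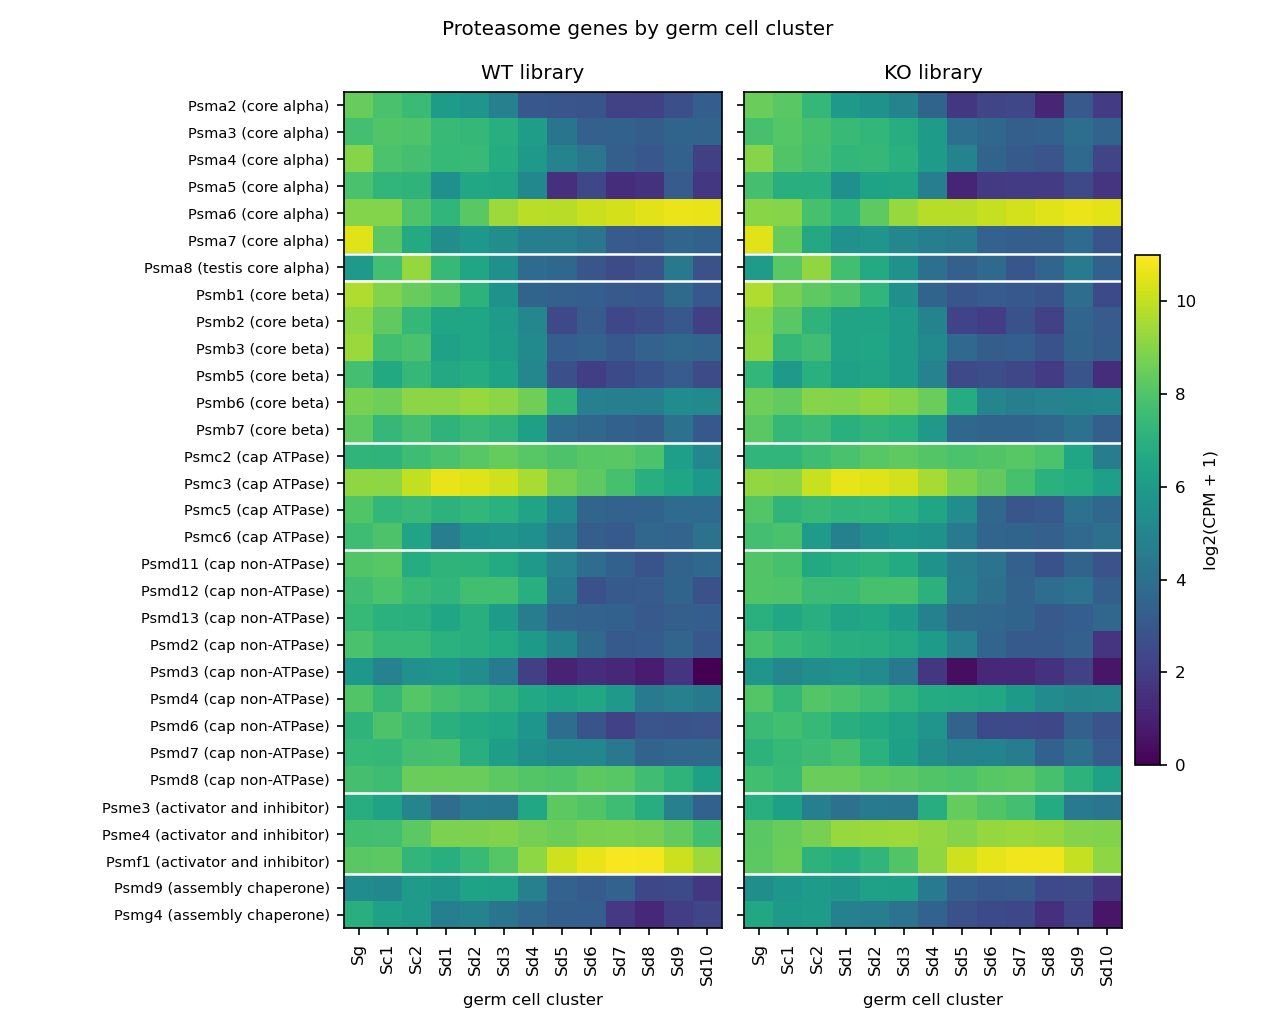
Level of the 31 proteasome genes as log2(CPM + 1), in colour, in the 13 germ cell clusters of the WT library (left) and the KO library (right), with white lines between gene classes. Most rows turn dark from Sd5 onward in both libraries, while Psma6, Psmf1 and Psme4 stay bright to Sd10.

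For the genes highest in Sg or Sc1, the level in Sd10 was a median of 2.37% of the highest level in WT and 1.49% in KO. Free RNA from broken cells adds a low level of every transcript to every cell. For the 14 genes highest in Sg in WT, Sd8 held a median of 1.38% of the Sg level, against 1.27% for the 4 spermatogonial markers. In KO these medians were 2.04% over 17 genes and 1.16%. The summed level of the markers in Sd8 was 0.725% of that in Sg in WT and 0.818% in KO. These bases are unlike, since the subunits are set against their highest cluster and the summed markers were higher in Sc1 than in Sg. The markers were at 6974 CPM in Sc1 and 22.7 in Sd8 in WT, and at 7004 and 24.2 CPM in KO. Single subunits reached up to 4.51% in WT (Psmd13) and 14.3% in KO (Psmd4). Whether this remaining signal came from free RNA was not tested. In the other direction, markers of elongating spermatids reached in Sg 13.8% of their Sd8 level in WT and 14.0% in KO.

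Among the alpha subunits, Psma7 (chr2:180036374-180042433, minus strand, GRCm38), which occupies the place that Psma8 takes in germ cells, was highest in Sg. Its level was 1393 CPM in Sg, 291 in Sc1 and 105 in Sc2 in WT, and 1438, 336 and 98.5 CPM in KO. This was 13.2 times higher in Sg than in Sc2 in WT and 14.6 times in KO. In Sd10, 12 UMIs were left in WT and 11 in KO.

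Psma2, Psma3, Psma4 and Psma5 shared this early course. Psma4 was highest in Sg, at 507 CPM in WT and 505 in KO, as were Psma2, at 344 and 358 CPM, and Psma5, at 231 and 213 CPM. Psma3 was highest in Sc1, at 257 CPM in WT and 276 in KO. In Sd10 these 4 genes lay between 2.27 and 10.8 CPM in both libraries.

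The testis paralogue Psma8 had the opposite order in these clusters. It was at 60.9 CPM in Sg, 207 in Sc1 and 610 in Sc2 in WT, and at 67.7, 290 and 585 CPM in KO. From Sc2 it went to 164 CPM in Sd1 and 45.1 in Sd3 in WT, and to 202 and 47.2 CPM in KO. After every cell was thinned to 3000 UMIs, 77.5% of WT cells and 74.1% of KO cells of Sc2 held a Psma8 UMI, against 95.1% and 96.3% without thinning. In Sd10, where Psma8 was near its lowest, the thinned shares were 3.80% and 2.16%, against 3.80% and 5.04% without thinning.

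Psma8 thus overtook Psma7 within the spermatocytes. The row of Psma7 rests on the inferred row rule given under the processing, while that of Psma8 does not. As a share of the UMIs of both genes, Psma8 made up 4.19% in Sg, 41.5% in Sc1, 85.3% in Sc2 and 79.7% in Sd1 in WT. In KO the share was 4.49%, 46.3%, 85.6% and 81.2%. The exact binomial (Clopper-Pearson) 95% interval in Sc2 was 84.2 to 86.2% in WT and 84.8 to 86.3% in KO. From Sd2 to Sd4 the share went from 60.3% to 33.5% in WT and from 66.5% to 37.3% in KO, while both genes were declining. Psma8 later went from 4.86 CPM in Sd7 to 21.0 in Sd9 in WT, and from 6.60 to 21.2 CPM in KO. In Sd9 the share was 65.5% in WT and 61.4% in KO, from 84 and 88 UMIs. In Sd10 it rested on 19 UMIs in WT and 28 in KO, at 36.8% with an interval of 16.3 to 61.6% and at 60.7% with an interval of 40.6 to 78.5%. The intervals of both libraries overlapped in 12 of 13 clusters, the exception being Sd6, with intervals of 16.5 to 37.6% in WT and 43.3 to 67.9% in KO from 73 and 68 UMIs. In the GENCODE transcripts, the longest stretch that Psma7 and Psma8 share is 17 bases, and 10 bases within the last 500, where reads of this 3′ method start. The UMIs were not divided by length, and the share is a share of captured molecules.

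**Figure D2:**
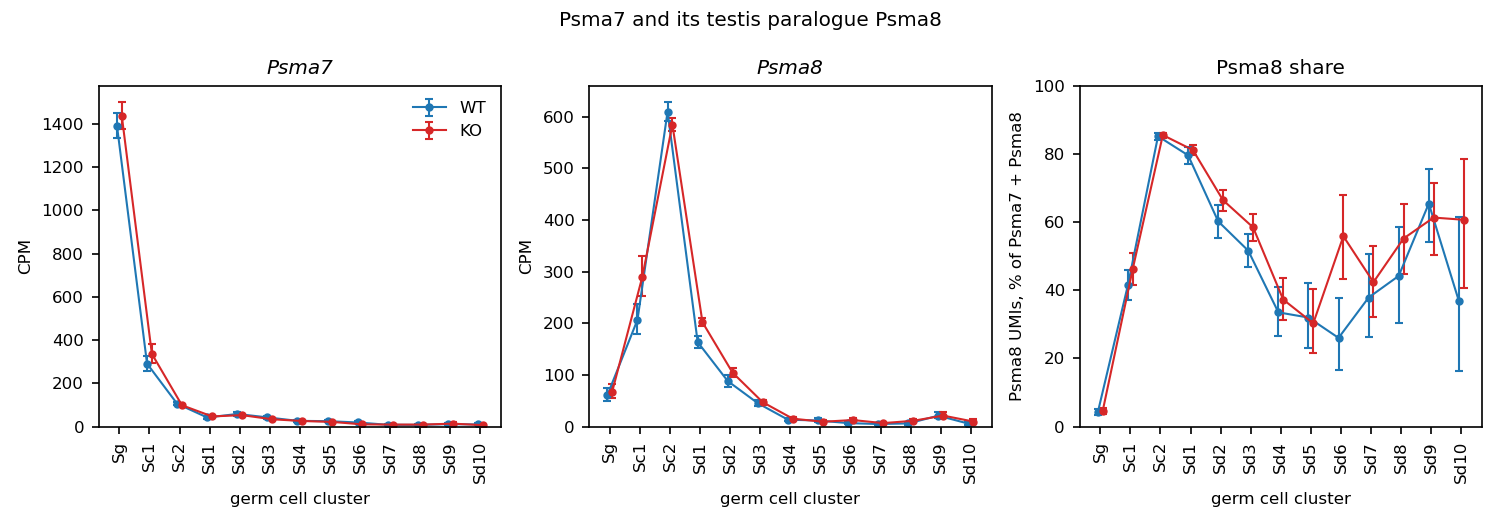
Levels of Psma7 and Psma8 in CPM and the share of Psma8 among the UMIs of both genes in percent, in the 13 clusters, for WT (blue) and KO (red), with exact 95% intervals for counting error. Psma7 peaks in Sg and Psma8 in Sc2, where its share is 85.3% in WT and 85.6% in KO.

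Psma6 (chr12:55384222-55418454, plus strand), another subunit of the alpha ring, departed from the rest of the core. It was at 495 CPM in Sc1, 149 in Sd1, 936 in Sd4, 1647 in Sd9 and 1579 in Sd10 in WT. In KO it was at 511, 152, 908, 1614 and 1517 CPM. Sd9 was 11.1 times Sd1 in WT and 10.6 times in KO. In Sd9, 99.8% of WT cells and 98.9% of KO cells held a Psma6 UMI at 3000 UMIs per cell, against 2.61% and 3.22% for Psma7, and the unthinned shares were 100% and 99.5% against 4.99% and 4.37%.

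Without Psma6, the 11 other core genes together were at 5672 CPM in Sg and at 90.0 CPM in Sd7 in WT, their lowest value. In KO they were at 5487 CPM in Sg and lowest in Sd8, at 87.6 CPM. Psma6 alone made up 55.6% of the CPM of all 31 genes in Sd10 in WT and 51.4% in KO. Together with Psmf1 and Psme4 it made up 86.1% in WT and 86.5% in KO.

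Of the beta subunits, Psmb5 was highest in Sg, at 209 CPM in WT and 155 in KO, and at 4.79 and 1.70 CPM in Sd10. Psmb7 was also highest in Sg, at 306 CPM in WT and 287 in KO, and was at 7.18 and 9.08 CPM in Sd10. Psmb6, which carries the third cutting site, was held longer. It was at 440 CPM in Sg and 624 in Sd2 in WT, and at 376 and 569 CPM in KO. Between Sd2 and Sd7 it went to 25.1 CPM in WT and 24.7 in KO, a ratio of 24.9 and 23.0. The noncatalytic beta genes were all highest in Sg, with Psmb1 at 836 CPM in WT and 833 in KO, Psmb3 at 646 and 569 CPM and Psmb2 at 554 and 534 CPM. The catalytic subunits of the beta ring did not share a single course, with Psmb5 and Psmb7 highest in Sg and Psmb6 in Sd2 in both libraries. This contrast depends on the inferred row rule given under the processing, on which the rows of Psmb5 and Psmb6 rest.

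Several cap genes were highest later than most of the core. Of the 13 cap genes, 5 were highest after Sc1 in WT (Psmc2, Psmc3, Psmd4, Psmd7 and Psmd8) and 4 in KO, where Psmd4 was highest in Sg, against 2 of the 12 core genes (Psma6 and Psmb6) in both libraries. The 4 ATPases together were highest in Sd1, at 1967 CPM in both libraries, and at 120 CPM in WT and 124 in KO in Sd10. Most of this was Psmc3, an ATPase of the cap base, which was at 585 CPM in Sg, 1576 in Sd1 and 56.7 in Sd10 in WT, and at 593, 1558 and 73.2 CPM in KO. An exon of Psmc3 overlaps Slc39a13 on the other strand, and whether strand was used in counting is not given in the sources used here. Psmc2, another ATPase, was highest in Sd3, at 334 CPM in WT and 308 in KO, and was at 238 and 239 CPM as late as Sd8. Of the other ATPases, Psmc5 was highest in Sg, at 255 CPM in WT and 264 in KO, and Psmc6 in Sc1, at 239 and 228 CPM.

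The 9 other cap subunits together were at 1692 CPM in Sg, 1644 in Sc2, 735 in Sd4 and 148 in Sd10 in WT. In KO they were at 1697, 1582, 736 and 155 CPM. Psmd8, a lid subunit and the most abundant of these, was nearly flat for most of the course. It was at 218 CPM in Sg, 365 in Sd1, 285 in Sd7 and 75.8 in Sd10 in WT, and at 203, 357, 303 and 77.7 CPM in KO. Psmd4, a ubiquitin receptor, was at 259 CPM in Sg and 20.8 in Sd10 in WT, and at 268 and 33.5 CPM in KO. Psmd7, the partner of the deubiquitinase Psmd14, was highest in Sd1, at 225 CPM in WT and 223 in KO. Psmd2 and Psmd13 were highest in Sg, at 230 and 162 CPM in WT and 222 and 125 CPM in KO, and Psmd6 in Sc1, at 246 and 202 CPM. Psmd11 was highest in Sc1 in WT, at 280 CPM, and in Sg in KO, at 254 CPM. Psmd3 was the lowest of the class, at 57.2 CPM in Sg in WT and 51.8 in KO. In Sd10 it had 0 UMIs in WT and 1 in KO. A count of 0 allows up to 3 as a 1-sided 95% limit, and more by the exact intervals used elsewhere.

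Among the activators and the inhibitor, Psme4 was highest in Sd3, Psme3 in Sd5 and Psmf1 in Sd7, in both libraries. Psmf1 (chr2:151715812-151744186, minus strand), which encodes the proteasome inhibitor PI31, was at 291 CPM in Sg, 122 in Sd1, 1886 in Sd7 and 662 in Sd10 in WT. In KO it was at 303, 110, 1753 and 559 CPM. Sd7 was 15.4 times Sd1 in WT and 15.9 times in KO.

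Psme3 (chr11:101316213-101323537, plus strand), the nuclear activator PA28 gamma, was high in a narrow window. It was at 14.4 CPM in Sd1, 302 in Sd5, 191 in Sd7 and 9.58 in Sd10 in WT. In KO it was at 16.6, 335, 208 and 18.7 CPM. The level in Sd5 was 21.0 times that in Sd1 in WT and 20.2 times in KO.

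Of the assembly factors, Psmd9, a chaperone of the cap base, was highest in Sd2, at 81.8 CPM in WT and 77.1 in KO. Psmg4, a chaperone of the core, was highest in Sg, at 117 CPM in WT and 91.8 in KO. Psmc3ip, which is no proteasome gene, was highest in Sc2, at 463 CPM in WT and 420 in KO.

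**Figure D3:**
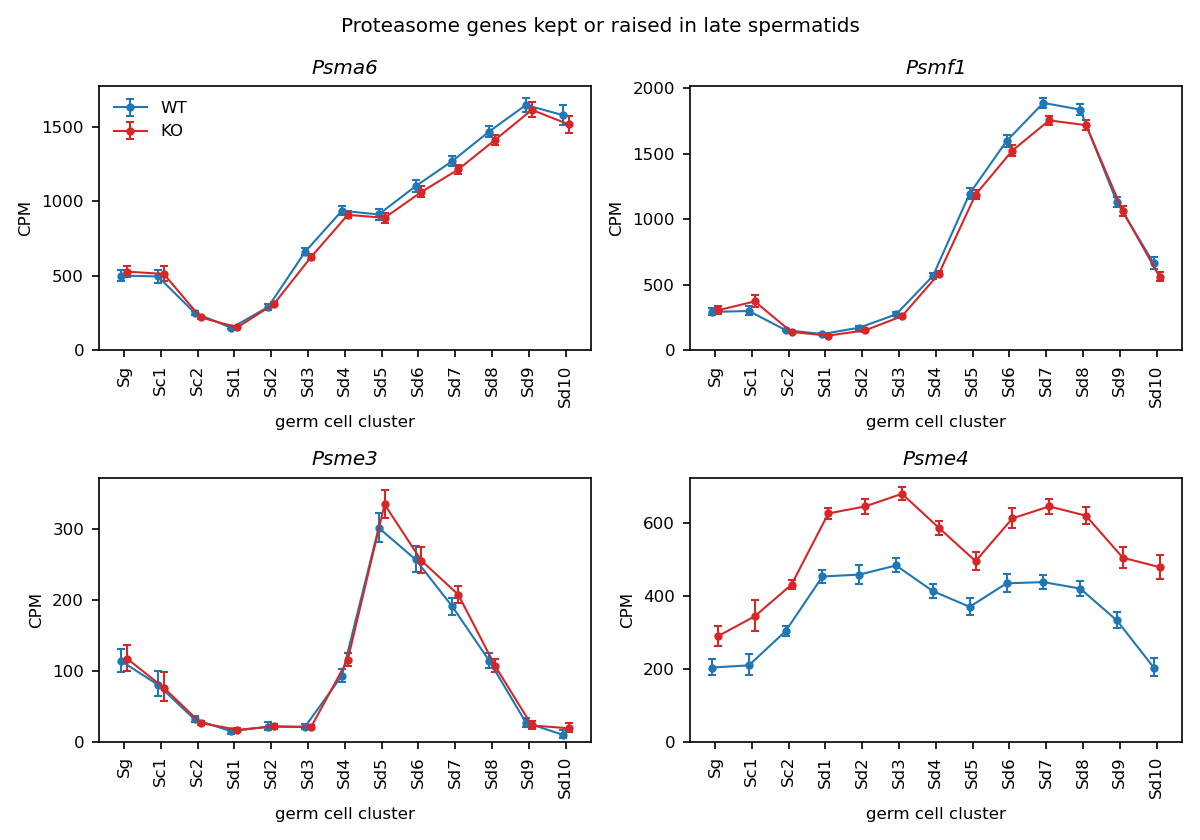
Levels in CPM of Psma6, Psmf1, Psme3 and Psme4 over the 13 clusters for WT (blue) and KO (red), with exact Poisson 95% intervals for counting error. Psma6 peaks in Sd9, Psmf1 in Sd7 and Psme3 in Sd5 in both libraries, and Psme4 lies higher in KO in each cluster.

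The genes whose course was most like that of the summed core were named from 2675 genes with a mean of at least 50 CPM, by Pearson correlation of log2(CPM + 10) over 26 points, the 13 clusters in each library. For the core as a whole these were Rpsa (r = 0.959), Rpl19 (0.952), Cyc1 (0.939), Rpl35 (0.935) and Rps18 (0.934). For the core without Psma6, a choice made after its course was seen, they were Eif3m (0.994), Cox6a1 (0.994), Sec61b (0.988), Park7 (0.988) and Dhx15 (0.988). The points share 2 libraries and their depth, so these values are descriptions.

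Between genotypes, Psme4 stood out among the proteasome genes. Psme4 (ENSMUSG00000040850.17, chr11:30771726-30880361, plus strand) encodes the activator PA200. Its level in WT was 203 CPM in Sg, 209 in Sc1, 303 in Sc2 and 452 in Sd1. In KO the same clusters were at 289, 343, 430 and 625 CPM. In Sd3 it reached 482 CPM in WT and 679 in KO, its highest in both libraries. In Sd9 it was at 332 CPM in WT and 504 in KO. In Sd10 it was at 203 CPM in WT, from 254 UMIs, and 478 CPM in KO, from 842 UMIs. The KO value was thus the higher one in all 13 clusters.

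The log2 ratio of KO to WT, with a prior of 1 UMI over both libraries, was 0.42 to 0.72 in the 12 clusters before Sd10, and 1.24 in Sd10, which is 2.36 times. The exact 95% interval for counting error in Sd10 was 1.03 to 1.44, and the intervals lay above 0 in all 13 clusters. At 3000 UMIs per cell, 37.5% of WT cells and 75.2% of KO cells of Sd10 held a Psme4 UMI, against 58.2% and 90.6% without thinning. No cluster lacked Psme4, so a background share for it could not be read, but Psma7 at the same depth was found in 1.63% and 1.80% of these cells. Over the whole libraries Psme4 was at 390 CPM in WT and 568 in KO, a log2 ratio of 0.54.

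A direction held in all clusters was not common among well covered genes. Of 960 genes with at least 100 UMIs in every cluster, 8.75% were higher in KO in all 13 clusters and 5.1% were lower in all 13. Of the 6 proteasome genes among them, 1 was higher in all clusters and 0 were lower in all. Ranked by their smallest ratio over the 13 clusters, Psme4 came first, at 0.42, followed by mt-Rnr2 at 0.31. This ranking was chosen after the values of Psme4 had been seen.

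Psmd12, a lid subunit, was also higher in KO in all 13 clusters, with log2 ratios from 0.07 to 1.37, but with 7 UMIs in WT in Sd10 it was outside the well covered genes, and its interval lay above 0 in 5 clusters. Over the settings of the processing that were run, its Sd10 ratio went from -0.10 to 0.67, so its direction there cannot be read. Psmd12 was at 199 CPM in Sg in WT and 257 in KO, and at 202 and 219 CPM in Sd3. The testis subunit Psma8 was higher in KO in 11 of 13 clusters and lower in 2, with log2 ratios from -0.33 to 0.91. Its interval lay above 0 in 5 clusters and below 0 in 1.

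The beta subunits were lower in KO at the start of the course. The 6 genes together were at 2991 CPM in Sg in WT and 2755 in KO, at 1661 and 1471 CPM in Sc2, and at 182 and 150 CPM in Sd5. Their log2 ratio was between -0.28 and -0.11 from Sg to Sd5, with the interval below 0 in all 8 of these clusters, while the median over all genes in these clusters was between -0.05 and 0.03. From Sd6 to Sd10 the interval included 0, with 88 UMIs in WT and 112 in KO in Sd10. All 6 beta genes were lower in KO in Sg, Sc1 and Sc2, and at least 5 of 6 in each cluster from Sd1 to Sd5. Of all genes read, 51.5% were higher in KO in Sg, 52.7% in Sc1 and 41.7% in Sc2, and from Sd1 to Sd5 the shares were 45%, 47%, 47.4%, 46.1% and 50.1%. In Sc2, where fewer genes were higher than lower, 6 of 31 proteasome genes were higher in KO. Outside the beta genes, the lean to lower values was uneven. Of 21 ubiquitin genes and enzymes, described further below, 12 were lower in KO in Sg, 11 in Sc1 and 12 in Sc2. From Sd1 to Sd4, 15, 16, 15 and 15 of them were lower, and in Sd5 14 of 20. Of 18 proteasome partners, 7, 10, 6, 9, 5, 8, 12 and 8 were lower from Sg to Sd5. The partners thus did not lean to lower values in most of these clusters.

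Psmb5 had the widest gap among the beta genes in these early clusters. It was at 209 CPM in Sg in WT and 155 in KO, a log2 ratio of -0.43 with an interval of -0.68 to -0.18. In Sc2 it was at 159 and 126 CPM, a log2 ratio of -0.33 with an interval of -0.44 to -0.22. Psmb5 was lower in KO in 12 of 13 clusters, with the interval below 0 in 6. Psmb6 was lower in 11 clusters and Psmb7 in 9, with intervals below 0 in 7 and 5. The rows of Psmb5 and Psmb6, unlike that of Psmb7, rest on the inferred row rule.

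The summed alpha subunits were lower in KO in 10 of 13 clusters, with log2 ratios from -0.15 to 0.11 and with the interval below 0 in 4 clusters (Sc2, Sd6, Sd7 and Sd8) and above 0 in 1 (Sc1). Their ratio was 0.04 in Sg, with an interval of -0.02 to 0.09, and -0.15 in Sc2, with an interval of -0.19 to -0.11, where all 6 alpha genes were lower in KO, as all 6 beta genes were. The cap ATPases were at -0.06 to 0.06 in every cluster but Sd9, where the log2 ratio was 0.30 with an interval of 0.12 to 0.48. The activators and the inhibitor together were higher in KO in all 13 clusters, by 0.04 to 0.43, but this sum holds Psme4. Psmf1 on its own was lower in KO in 10 clusters, with the interval below 0 in 8.

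**Figure D4:**
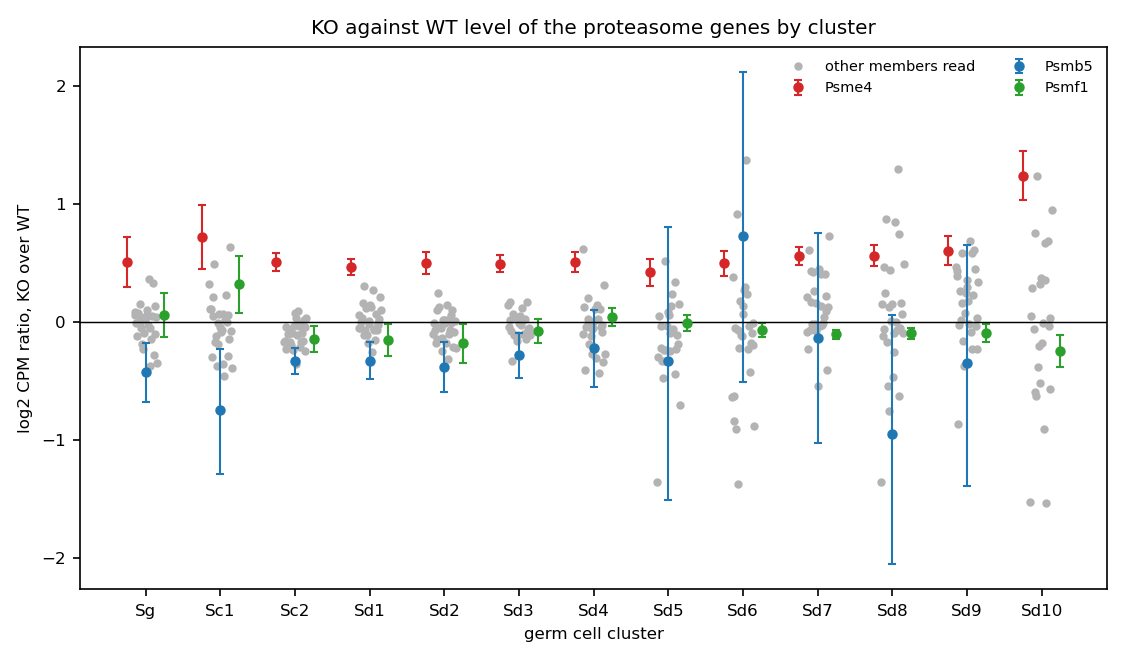
Log2 ratio of KO to WT CPM of each proteasome gene with at least 10 UMIs in both libraries together (grey points), by cluster, with Psme4 (red), Psmb5 (blue) and Psmf1 (green) and their exact 95% intervals for counting error. Psme4 lies above 0 in all 13 clusters, from 0.42 to 1.24, and the grey points spread more widely from Sd5 onward, where counts are lower.

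In Sd10, the latest spermatids and the cluster on which the study centred, 26 of the 31 genes reached 10 UMIs over both libraries and were counted. Of these, 12 were higher and 14 lower in KO, and among all 3674 genes read 54% were higher. At least 1.5-fold higher in KO were 6 genes (23.1% of those read, against 15.6% of all genes), and at least 1.5-fold lower were 5 genes (19.2%, against 9.8%). Most of these calls rest on few UMIs, and of the 8 genes with at least 50 UMIs, 2 were at least 1.5-fold higher and 0 lower. The median log2 ratio of the 26 genes was -0.02, against 0.04 for all genes. The summed level of all 31 genes was 2838 CPM in WT and 2954 in KO, a log2 ratio of 0.06 with an interval of -0.004 to 0.12. As a group, the proteasome genes therefore did not lie to one side in Sd10. The study reports an enrichment of proteasomal proteins among its differentially expressed genes of Sd10. That result came from tests over single cells and from gene ontology terms, an unlike measure, and it was not repeated here.

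Only 8 members had at least 50 UMIs in Sd10. Psme4 was the highest of them, at 1.24. Psmd4 followed, with 20.8 CPM in WT and 33.5 in KO, a log2 ratio of 0.68 with an interval of 0.001 to 1.41. Psmc3 was at 56.7 and 73.2 CPM (0.37, interval -0.06 to 0.81), and Psmd8 at 75.8 and 77.7 CPM (0.04, interval -0.35 to 0.43). For Psmd8 and Psmc3 the interval included 0, so that no difference was detectable at this depth.

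Psmc2 was the lowest, with 33.5 CPM in WT and 23.3 in KO, a log2 ratio of -0.52 with an interval of -1.18 to 0.13. Psmf1 was at 662 and 559 CPM, a log2 ratio of -0.24 with an interval of -0.38 to -0.11. Psmb6 was at 36.7 and 31.8 CPM (-0.21, interval -0.80 to 0.39), and Psma6 at 1579 and 1517 CPM (-0.06, interval -0.14 to 0.03). Of these 8 genes, only for Psme4, Psmd4 and Psmf1 did the interval leave out 0. For the other 18 genes counted in Sd10, such as Psmb2 with 4 UMIs in WT and 14 in KO or Psmd2 with 9 and 4, the interval included 0.

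**Figure D5:**
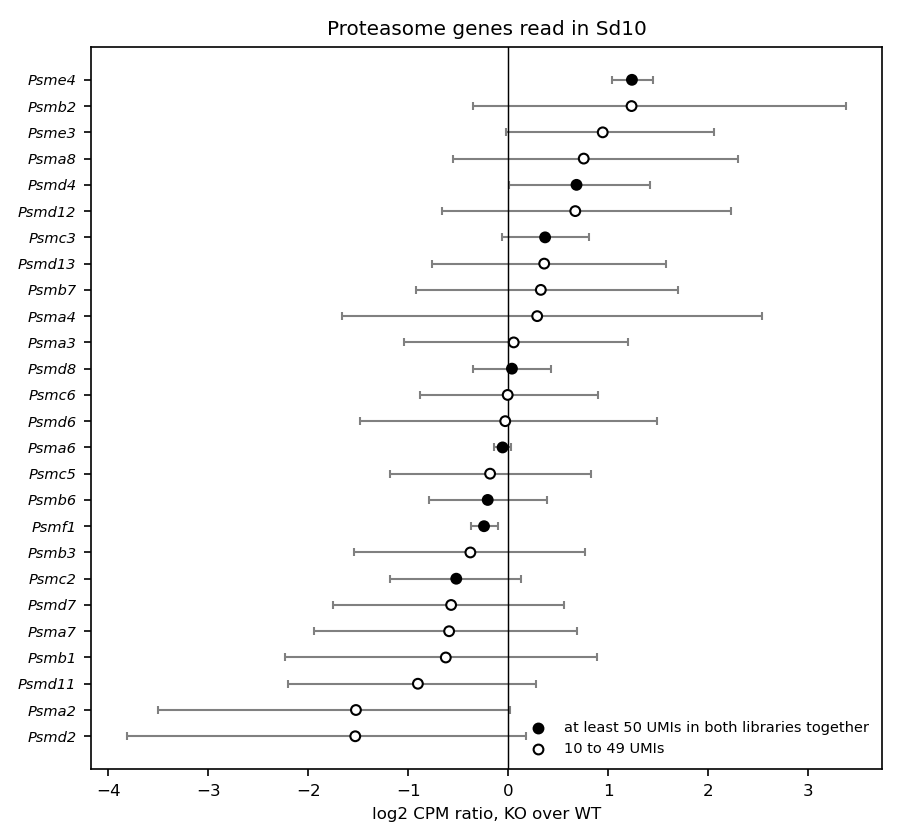
Log2 ratio of KO to WT CPM in Sd10 for the 26 proteasome genes read there, in order, with exact 95% intervals for counting error; filled points have at least 50 UMIs in both libraries together. Psme4 is at 1.24 with an interval of 1.03 to 1.44, and for most other genes the interval includes 0.

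The libraries differed in other ways. The median percent of mitochondrial UMIs per cell was higher in KO in all 13 clusters, as Psme4 was, with 0.256% in WT and 0.351% in KO in Sd3, 0.408% and 0.637% in Sd9, and 0.491% and 0.686% in Sd10. The usable leukocyte markers (2 of 9, C1qb and Cd74) summed to 117 CPM in WT and 49.4 in KO in Sd10, and ranged from 1.89 to 117 CPM over the clusters in WT and from 1.02 to 49.4 in KO. The usable red blood cell markers (3 of 5) were at 21.6 and 10.8 CPM in Sd10, and ranged from 2.46 to 542 CPM over the clusters in WT and from 4.51 to 784 in KO. Their widest gaps were in Sd8, at 9.39 CPM in WT and 784 in KO, and in Sd9, at 542 and 10.2 CPM. The 2 usable of 7 Leydig cell markers were at 3.99 and 2.27 CPM. Round spermatid markers were at 97.4 CPM in WT and 115 in KO, and elongating spermatid markers at 200377 and 190802 CPM. The part of these in the ratios above was not tested.

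Beside the proteasome itself, 18 of 36 listed partners (shuttle factors, chaperones, the unfoldase Vcp and downstream peptidases) could be read by row. In Sd10, 15 had at least 10 UMIs, of which 6 were higher and 9 lower in KO, 1 at least 1.5-fold higher and 1 at least 1.5-fold lower, with a median of -0.01. Of all genes read there, 54% were higher, 15.6% at least 1.5-fold higher and 9.8% at least 1.5-fold lower, with a median of 0.04. The highest of those with at least 50 UMIs were Ngly1, which removes sugars from misfolded glycoproteins, at 125 CPM in WT and 200.3 in KO (0.68), Ddi1, a shuttle protease, at 158 and 232 CPM (0.55), and Akirin2, which imports proteasomes into the nucleus, at 164 and 213 CPM (0.38). The lowest were Ufd1, a cofactor of Vcp, at 51.1 and 44.3 CPM (-0.21), Ubqlnl, a ubiquilin-like gene, at 722 and 665 CPM (-0.12), and Tpp2, a peptidase, at 17.6 and 16.5 CPM (-0.09).

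Unlike most subunits, Ubqlnl was highest in Sd10. Pomp, the chaperone of core assembly, followed the core instead, with 272 CPM in Sg and 4.79 in Sd10 in WT, and 291 and 3.40 CPM in KO. Vcp was highest in Sc1, at 311 CPM in WT and 322 in KO, and at 5.59 and 5.11 CPM in Sd10.

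Of 42 listed ubiquitin genes and ubiquitin-activating and conjugating enzymes, 21 could be read by row and 18 had at least 10 UMIs in Sd10. There, 8 were higher and 10 lower in KO, 1 at least 1.5-fold higher and 3 at least 1.5-fold lower, with a median of -0.11, against 54%, 15.6% and 9.8% and a median of 0.04 for all genes. The highest with at least 50 UMIs were the conjugating enzymes Ube2w, at 224 CPM in WT and 329 in KO (0.56), Ube2b, at 70.2 and 97.6 CPM (0.47), and Ube2m, an enzyme for the ubiquitin-like protein Nedd8, at 36.7 and 47.7 CPM (0.37). The lowest were Rps27a, a ubiquitin fusion gene, at 32.7 and 21.6 CPM (-0.59), Ube2d2b, at 38.3 and 27.8 CPM (-0.46), and Ube2j1, an enzyme of the endoplasmic reticulum, at 1363 and 1056 CPM (-0.37). Ube2n was at 77.7 CPM in Sd1 and 3296 in Sd10 in WT, and at 71.5 and 2737 CPM in KO, and Ube2k at 121 and 2377 CPM in WT and at 125 and 2873 CPM in KO. Both enzymes were thus highest in Sd10, where most subunits of the core were lowest or nearly so.

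Genes of the proteasome are known to be driven together by the factor Nfe2l1 through antioxidant response elements, so promoters of the members were searched for the core of this element. In the RefSeq promoter table of GRCm38, which runs from 250 bases before to 50 after each start, 25 of the 32 members had an entry. The letters TGACNNNGC, on either strand, were in 6 of 25 members (24.0%) and in 14.0% of 27025 symbols. The MYB-type letters AACNGNC were in 14 of 25 members (56.0%) and in 36.0% of all symbols, and the cAMP response element TGACGTCA in 0 of 25 and 2.03%. TGACNNNGC and TGACGTCA share their first letters, but no stretch can hold both from the same base. The 30 bases around TGACNNNGC, in capitals and along the strand on which it reads this way, are shown for the 6 members.
Psme4, chr11:30771757-30771786, minus strand: gctcttctggTGACGCTGCagccgcagcgc
Psmd12, chr11:107479278-107479307, minus strand: gtctgaggggggcaaatgTGACACAGCaga
Psmb5, chr14:54618023-54618052, minus strand: cgtgaagttgTGACGTCGCggcgttgccag
Psmb6, chr11:70525338-70525367, plus strand: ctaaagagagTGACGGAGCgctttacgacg
Psmc6, chr14:45329586-45329615, minus strand: gagcaatgccTGACTTAGCtactggctggc
Psmd9, chr5:123228149-123228178, plus strand: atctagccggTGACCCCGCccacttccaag
Relative to the RefSeq start of each gene, the letters ended 7 bases upstream in Psme4, 22 in Psmd9, 38 in Psmb5, 218 in Psmc6 and 238 in Psmd12, and in Psmb6 they adjoined the start. The GENCODE annotation begins Psme4 at base 30771726 and Psmd9 at base 123169413, both further upstream, so that the letters of these 2 genes lie inside the gene as GENCODE draws it. A match is a description of the sequence, not a bound site, and a link of these letters to the ratios between genotypes was not tested.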

How the data were processed

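Cells of 1 WT and 1 KO testis library were analysed from the deposited raw UMI counts per gene and cell, which the authors had made with STAR 2.5.3a (mm10, Ensembl genes) and featureCounts 1.6.2 and had filtered and clustered in Seurat 3.2.3. The authors' deposited cell table also gave the library, the cluster and the percent of mitochondrial UMIs of each cell, and a score column of sctransform-corrected totals, which was not used. The limits of their cell filter are not given in the sources used here.

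The gene list is shorter than the matrix (25065 symbols, 26758 rows). The 30 mitochondrial symbols were matched to rows whose sums gave the mitochondrial percent in 12408 of 12408 cells, only rows seen in under 5 cells were allowed to lack a symbol, and symbols with 1 possible row were used (87.1% of WT and 86.7% of KO UMIs). This rule is an inference, and 0 of the 31 stretches between matched rows went against it. Without it, 22 of the 32 members keep 1 possible row. Those that do not are Psma3, Psma7, Psmb5, Psmb6, Psmc2, Psmc6, Psmd3, Psmd7, Psmd13 and Psmg4.

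Summed UMIs of a cluster in a library were scaled to CPM. Log2 ratios have a prior of 1 UMI, and genes with at least 10 UMIs in both libraries together were read. Intervals (95%, exact) cover counting error only; cells are not replicates, and with 1 library per genotype no test, SE or p-value was computed. Cells were thinned to 3000 UMIs (the smallest cell has 3219) for shares of cells, and no doublet caller was run. The library totals are in the report; a cluster held 749010 to 12722633 UMIs. Python 3.11.15 with numpy 2.4.6, pandas 2.3.3, scipy 1.17.1 and matplotlib 3.10.9 was used. The ratios were tested on simulated Poisson counts of Sd10, for genes with at least 100 UMIs in both libraries together. This covers counting error in such genes only, not genes with fewer UMIs or differences between libraries. Gene positions and transcripts are those of GENCODE vM21 (GRCm38, the same build as mm10).

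The members, the lists and the tests were chosen with earlier results of these data known. Named in full are the core, catalytic and activator genes listed by hand, the 5 highest and 5 lowest ratios in Sd10 with at least 50 UMIs (8 genes had as many), the gene with most UMIs per class, and the 3 highest and 3 lowest of each pathway list. Psmd12, Psmg4, Pomp, Vcp, Ube2n and Ube2k were named after their values had been seen.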

Additional observations from a re-analysis of the deposited data

Results flagged for a closer look

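For 6 of the 32 genes, the interval of the KO to WT ratio lay above 0 in at least 1 cluster and below 0 in at least 1 other. The difference between the clusters was not tested, and with many genes and 13 clusters some such pairs arise from counting error alone. The log2 ratio of Psma8 was 0.91 in Sd6 and -0.060 in Sc2, that of Psma2 was 0.32 in Sc1 and -1.36 in Sd5, and that of Psma4 was 0.17 in Sd3 and -0.84 in Sd6. Psmf1, the inhibitor gene, was at 0.32 in Sc1 and -0.24 in Sd10, and Psmd8 of the cap at 0.16 in Sd8 and -0.21 in Sd2. Psmc3ip, the recombination gene that shares the name only, was at 0.49 in Sg and -0.16 in Sd4.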

How the results depend on the processing

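No paired analysis was possible because each genotype has 1 library. The Psme4 ratio stayed above 0 in all 13 clusters under each of the 6 alternatives run, its smallest value being 0.31 to 0.43, and in Sd10 it was 0.77 to 1.30. The beta subunit ratio nearest 0 from Sg to Sd5 was between -0.11 and -0.08 under the 4 alternatives run. These measures, and leaving single genes out of a sum, were chosen after the data were seen.

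The Sd10 ratio of the summed Psma8 class turned from 0.79 to -0.60 with cells thinned to 3000 UMIs (that of Psma8 with the prior to -0.56), from 7 WT and 17 KO UMIs, so its direction cannot be read. The activator and inhibitor sum was 0.087 with Sd9 and Sd10 joined, -0.22 without Psme4 and 1.23 without Psmf1. Without Psma6 the alpha sum was -0.40 and that of all genes 0.19, and without Psme4 the latter was -0.090. Genes at least 1.5-fold lower in Sd10 numbered 3 with thinning, 3 with a prior of 10 UMIs and 3 with Sd9 and Sd10 joined, where 3 were higher. At a minimum of 50 UMIs, 4 genes were higher and 4 lower, 2 at least 1.5-fold higher and 0 lower, as only 8 genes were read, and with the stricter row rule 9 were lower. The median ratio was -0.13 to 0.04 in all alternatives.

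Counting clusters from 1 (Sg) to 13 (Sd10), the highest one moved to 12 (Sd9) for the alpha sum under the stricter row rule in both libraries, which leaves out Psma7, to 3 (Sc2) for the other cap subunits in WT with thinning, and for the assembly factors to 5 (Sd2) under the stricter rule in both libraries and to 3 (Sc2) in KO without the 5% of cells with most UMIs. The Psma8 share moved in Sg to 3.22% in WT and 3.66% in KO as a mean over cells, to 3.21% in WT without the top cells and to 3.25% in KO with thinning. It moved in Sd1 in WT to 76.7% as a mean over cells, in Sd10 in WT to 63.6% with thinning, and in Sc1 in KO to 51.9% with thinning and 52.6% without the top cells. In Sd10, where 8 members had at least 50 UMIs, low counts limit the ratios of the others.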
